A study of Mus musculus with 8 samples.

Results

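Translation efficiency (TE) is the number of ribosome footprints on a gene for each unit of its mRNA. It was measured in tumour cells with amino acids supplied: Gcn2 wild-type KRPC-A cells moved for 1 h into amino acid-replete medium. Ribosome profiling counts the short mRNA fragments that a ribosome shields from ribonuclease, and RNA-seq of the same cells counts the mRNA itself. For each gene the scaled footprint count was divided by the scaled RNA count, for genes with 30 or more reads in both libraries. This gave 9709 members out of 55536 annotated genes, of which 9467 were protein-coding, 84 were long non-coding RNAs and 59 had no class in the annotation table used. Values are given as log2 TE relative to the median protein-coding member, so that 0 is the typical gene, 1 is 2-fold more footprints per RNA and -1 is 2-fold fewer.

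KRPC-A is a line of pancreatic tumour cells from genetically engineered mice of the C57BL/6 strain. Wild-type cells and cells lacking Gcn2 (symbol Eif2ak4), the kinase that senses uncharged tRNA and phosphorylates the initiation factor eIF2, were moved for 1 h into amino acid-replete or leucine-free medium, and each of the 4 states gave 1 RNA-seq and 1 footprint library. The 8 libraries are therefore 8 groups of 1. No group has a replicate, no test between genes or states was made, and each interval is a 95% interval for counting error alone, computed as if PCR-amplified reads were independent molecules. The sources used here do not say how the knockout was made or whether each line was a clone. The other 3 pairs of libraries (wild-type leucine-free, knockout replete and knockout leucine-free) share no library with the wild-type replete pair, and their values are given beside it as other conditions, not as replicates.

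The wild-type replete footprint library held 9993211 counted reads, 91.7% of them on protein-coding genes, and the RNA library 57455985, of which 71.7% were protein-coding and 24.7% came from mitochondrial rRNA. The other footprint libraries held 2671491 to 6921265 reads. Levels within an assay are given in CPM, the count scaled up from the library's protein-coding total. Eif2ak4 had 62.7 CPM of footprints and 87.9 CPM of RNA in wild-type replete cells, 64.5 and 71.8 in wild-type leucine-free cells, 7.33 and 13.9 in knockout replete cells, and 16.2 and 17.0 in knockout leucine-free cells. Of 9 duct and epithelial markers, 5 had 30 or more RNA reads in the wild-type replete library, among them Krt8 (750), Krt18 (2499) and Sox9 (6431), but Epcam had 0 and Krt19 had 25. Of 9 fibroblast and mesenchymal markers, 6 reached 30 reads, from 62 for Col1a2 and 632 for Col1a1 to 50767 for Vim and 63436 for Col3a1, while Pdgfra had 10 and Dcn and Thy1 had 0. None of 5 acinar or 6 immune and endothelial markers reached 30 reads, and 4 of each were at 0. Part of the epithelial and part of the mesenchymal markers were thus absent or near 0 in the labelled pancreatic tumour cells.

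The ratio reflects several steps. An mRNA gains footprints when ribosomes initiate on it often or elongate slowly. A long coding sequence holds more ribosomes than a short one loaded at the same density. RNA reads rise with length as well (rank correlation 0.44 with exonic length), so a long coding sequence need not raise the ratio. Well-studied control elements include the 5′ terminal oligopyrimidine (TOP) tract of ribosomal protein and elongation factor mRNAs, which is read through the kinase mTOR, and upstream open reading frames (uORFs), which catch ribosomes before the main coding sequence. Reads were counted over all exons, untranslated regions included, so footprints on a uORF count toward its gene, while long untranslated regions add RNA reads and few footprints.

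TE ranged widely between genes. The standard deviation over the 9467 protein-coding members was 1.53 on the log2 scale, against a median counting half-width of 0.17. The 5th and 95th percentiles lay at -2.35 and 2.60, that is 5.11-fold below and 6.05-fold above the median gene, and the 1st and 99th at -3.53 and 4.10. A gene was called high or low where it lay at least 2-fold from the median and its counting interval did not reach it: 2222 genes were high (23.5% of those measured) and 2260 were low (23.9%). These shares are the background for every count of list members below. They vary with RNA: among members with 30 to under 300 RNA reads, 61.1% were high and 0.09% low. Genes with that little RNA and few footprints fall under the count minimum. The shares vary with exonic length too. Under 1000 nucleotides 91.9% were high and 1.25% low, from 1000 to 2000 nucleotides 62.5% and 4.98%, and at 8000 or more 5.45% and 42.2%. For a list of short or long mRNAs, the shares at its own length are the closer background. With each assay scaled by all counted reads and no centring, the median gene moved by 0.33 and the split became 2964 high against 1658 low, so high and low are meaningful only relative to the median gene.

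**Figure D1:**
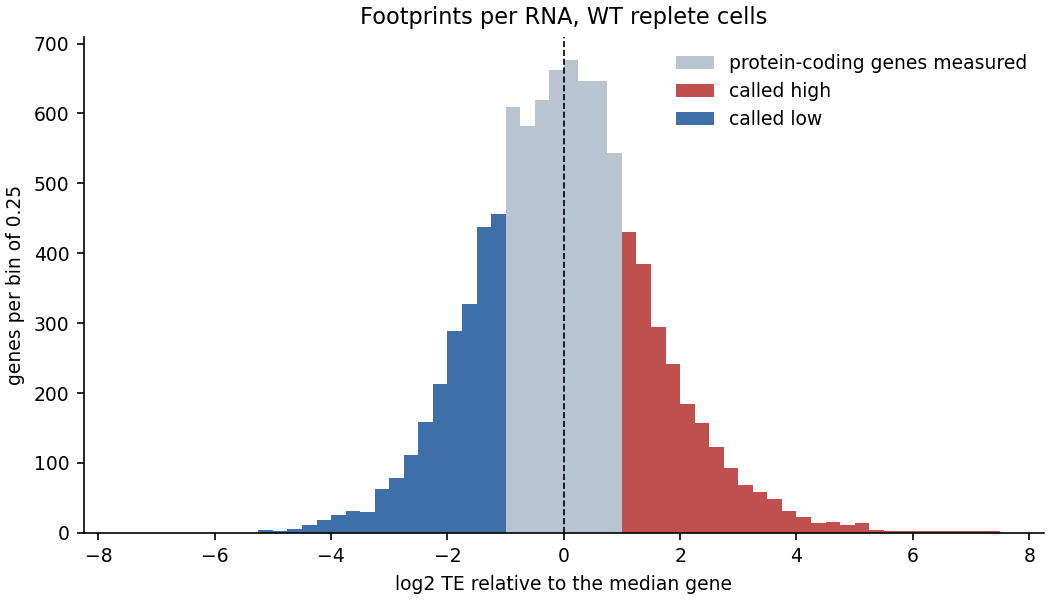
Histogram of log2 TE (x axis, relative to the median gene) for the 9467 protein-coding members in wild-type replete cells, with the number of genes per bin of 0.25 on the y axis. The 2222 genes called high and the 2260 called low fall on both sides of a single central peak.

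The 10 highest genes with at least 300 RNA reads comprised 5 histone genes, the lectin Lgals1, the thioredoxin Txn1, the respiratory complex I subunit Ndufc2, the metallothionein Mt1 and the proteasome subunit Psma6. Hist1h3i (GRCm38 chr13:21782960-21783370, minus strand), a core histone H3 gene, was highest, with 7745 footprints against 324 RNA reads and a log2 TE of 6.78, which is 110-fold above the median gene. In the other pairs, in the order wild-type leucine-free, knockout replete and knockout leucine-free, it stood at 6.26, 6.28 and 6.75. It was thus far above the median gene in every pair.

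Lgals1 (chr15:78926725-78930465, plus strand) encodes galectin-1, a secreted sugar-binding protein. It had 26241 footprints and 2651 RNA reads, a log2 TE of 5.51 and a fold of 45.4 over the median. Its footprints stood at 3015, 2250, 3069 and 2670 CPM in wild-type replete, wild-type leucine-free, knockout replete and knockout leucine-free cells, and its RNA 64.7, 101.04, 124 and 158 CPM. RNA was lowest in the wild-type replete library, where TE was highest, and TE stood at 4.43, 4.60 and 4.08 in the others. Txn1, which reduces protein disulphides, had 12769 footprints and 1692 RNA reads and stood at 5.11, against 4.28, 4.46 and 4.81 in the other pairs. Mt1, a metal-binding protein encoded by a very small mRNA, stood at 5.08, and Psma6, a subunit of the proteasome core, at 4.95. All 10 genes were far above the median gene in the other pairs too, the lowest value being 3.97 for Hist1h4d in knockout leucine-free cells.

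The 10 lowest genes had 3800 or more RNA reads and 30 to 439 footprints. The protein kinase catalytic subunit Csnk2a1 (casein kinase 2, chr2:152226839-152281852, plus strand) was lowest, with 82 footprints against 13803 RNA reads and a log2 TE of -5.20, 36.7-fold below the median gene, and stood at -4.71, -5.61 and -4.43 in the other pairs. Uhmk1, a kinase of splicing factors (chr1:170193420-170215397, minus strand), had 17.4, 16.5, 16.5 and 38.4 CPM of footprints in wild-type replete, wild-type leucine-free, knockout replete and knockout leucine-free cells, against 598, 448, 610 and 559 CPM of RNA. Its TE of -5.14 in wild-type replete cells was followed by -4.80, -5.24 and -3.86 in the others, and knockout leucine-free cells had the most footprints on it.

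Lars2, the mitochondrial leucyl-tRNA synthetase, stood at -5.19 with 439 footprints and 73707 RNA reads. Its RNA ranged over 1799.97, 3526, 1865 and 1056 CPM across the same 4 states, a wider spread than that of Csnk2a1 (337, 357, 373 and 364). The remaining lowest genes were the zinc finger gene Zfp706 (-5.09), the transcription factor gene Usf3 (-4.91), the spermine synthase Sms (-4.79), the cyclin Ccni (-4.77), Atxn7l3b (-4.66), the ubiquitin protease gene Usp31 (-4.65) and the RING finger gene Rnf141 (-4.64). Sms and Rnf141, with 30 and 38 footprints, fell under the count minimum in all 3 other pairs, and Sms sits on the threshold itself. Usf3 and Usp31 have exonic lengths of 13050 and 10304 nucleotides, whereas all 10 highest genes except Hist1h1d were under 2000.

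**Figure D2:**
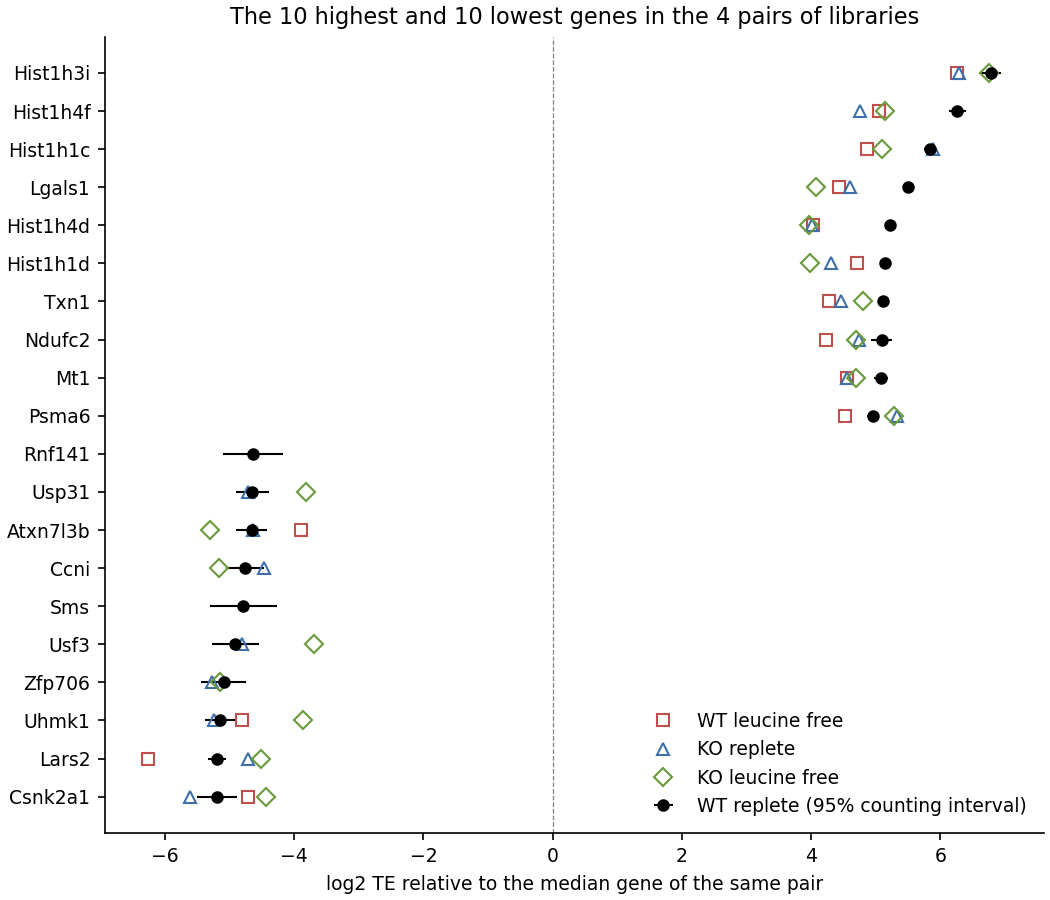
Log2 TE (x axis) of the 10 highest and 10 lowest protein-coding genes with 300 or more RNA reads (y axis): filled circles with 95% counting intervals are wild-type replete cells, and open symbols the other 3 pairs. All open symbols lie on the same side of 0 as the circle. A missing symbol marks a pair in which the gene had under 30 reads in either library.

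Among the components of the translation machinery, TE was far from uniform. Of the 28 small-subunit ribosomal proteins measured, 15 were high and 2 low, with a median of 1.23; of 41 large-subunit proteins, 23 were high and 6 low, with a median of 1.11. The small-subunit median depends on the count minimum. It was 2.11 over the 19 genes with 100 or more reads in both libraries, and 0.95 over the 32 with 10 or more. In the wild-type leucine-free, knockout replete and knockout leucine-free pairs it was 1.47, 2.22 and 1.30, over 20, 25 and 23 genes. The members behind these medians therefore differ. Single members spread far to both sides. The highest were Rpl7a (5.34, with 911 footprints and 103 RNA reads) and Fau (5.06, with 291 and 40), which encodes a ubiquitin-like fusion with Rps30. Both had under 300 RNA reads, where 61.1% of members were high. The lowest were Rps7 (-3.98, with 62 and 4491) and Rpl19 (-2.97, with 31 and 1117). Rpl7a was at 5.02, 5.13 and 5.25 in the other pairs, and Rps7 at -4.05 and -3.92 in the knockout pairs, so these differences between ribosomal proteins recurred. Ribosomal protein mRNAs are short, with a median exonic length of 1782 nucleotides for the small and 1840 for the large subunit against 4793 for all protein-coding members. After the trend with length was removed, their medians were 0.07 and 0.39.

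Ribosomal protein genes have many processed copies in the genome. The sources used here show no setting for reads that map to several places, and their part in these values was not tested. The values of single members are therefore uncertain. The count minimum also leaves out 4 of 32 listed small-subunit and 6 of 47 listed large-subunit genes. Among 22 other known TOP mRNAs, 10 were high and 4 low, with a median of 0.94. Rack1, a scaffold on the small subunit, was highest at 3.66, with 23809 footprints and 8649 RNA reads. The histone chaperone Nap1l1 was lowest at -2.32 and the splicing factor Hnrnpa1 next at -1.55. Within this group the 6 subunits of eIF3, the factor that recruits the small subunit to mRNA, had a median of 1.58, whereas Eef1a1, which delivers aminoacyl-tRNA, stood at -1.47 and Eef2, which moves the ribosome along, at 0.53. Tpt1 stood at 2.51 and Rpl41, the smallest ribosomal protein, at 1.03.

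Pabpc1, the poly(A)-binding protein and a TOP mRNA, stood at -0.65 in wild-type replete cells and at -3.35, -0.63 and 0.03 in the other pairs. Its footprints stood at 510, 97.9, 494 and 635 CPM in wild-type replete, wild-type leucine-free, knockout replete and knockout leucine-free cells, and its RNA 781, 970, 749 and 621 CPM. Footprints were low in the wild-type leucine-free library alone. Eef1a1 stood at -2.10, -0.99 and -0.73 in the other pairs, and Tpt1 at 1.19, 2.49 and 2.78, both lowest in wild-type leucine-free cells.

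To show what these start regions look like, 30-base stretches are printed below, 5′ to 3′ on the coding strand, with the pyrimidine run CTCTTTC in capitals. They come from the RefSeq promoter table of GRCm38, patch 6, which gives 250 bases before and 50 after each annotated start, and are ordered from high to low TE. In Rpl5 and Rack1 the run begins 20 and 6 bases before the annotated start and in Rpl35a and Rpl19 29 and 32 bases after it, so a run here need not be the TOP tract at the true start. The motif and the genes were chosen after the windows of ribosomal protein genes had been looked at.
Fau, chr19:6057940-6057969, plus strand: cccacttcttcCTCTTTCttgactccatct
Rps26, chr10:128626483-128626512, minus strand: gccgccggatcCTCTTTCgagtcttggctc
Rpl35a, chr16:33056471-33056500, plus strand: ggcttgccttcCTCTTTCcgccatcttggc
Rack1, chr11:48800343-48800372, plus strand: ggcggaggccgCTCTTTCtttttctccaca
Rpl28, chr7:4792954-4792983, plus strand: ctctcgtgtctCTCTTTCcgtctccggccg
Eif3f, chr7:108934406-108934435, plus strand: ctaggctctctCTCTTTCtcggcaagatgg
Rpl5, chr5:107900497-107900526, plus strand: gcctacagccaCTCTTTCtcacgtcgcttg
Rpl19, chr11:98026944-98026973, plus strand: gcggcccacaagCTCTTTCctttcgctgct

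These genes shared the run and spanned log2 TE from 5.06 (Fau) to -2.97 (Rpl19). The motif stood on the coding strand in 12 of 51 ribosomal protein windows (23.5%), in 3 of 16 windows of the other TOP mRNAs (18.8%), and in 344 of 7734 windows of protein-coding members (4.45%). Over all 32851 windows in the table the share was 3.99%, and it was 4.32% on the other strand. On the other strand of the ribosomal protein windows it was 9.80%. The 12 ribosomal protein genes with it had a median TE of 2.39 and the other 39 a median of 1.03, while the members as a whole stood at 0.19 with the motif and 0.00 without. The motif was chosen after ribosomal protein windows had been looked at, so its larger share in them follows in part from that choice and is no evidence of a link. The medians with and without it were not adjusted for length. A match describes letters in a window and does not mark a functional site.

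Over 22 genes for eIF2, eIF2B, eIF4 and related factors, 6 were high and 6 low, with a median of 0.25. The 5 subunits of eIF2B, the exchange factor that reloads eIF2 with GTP, had a median of 1.74, with Eif2b1 highest at 2.76. The 7 eIF4 genes of this list, which bind the mRNA cap and unwind the leader, had a median of -1.11 and included the lowest gene of the list, the helicase Eif4a1, at -4.30 with 55 footprints and 4980 RNA reads. Eif4a2 and Eif4b, counted above with the TOP mRNAs, stood at -0.77 and -0.72. Eif4g2, an eIF4G-like protein, was next at -2.31, with 10571 footprints and 240624 RNA reads, and stood at -2.16, -2.43 and -1.87 in the other pairs. All 20 cytosolic aminoacyl-tRNA synthetases were above the median gene, 11 of them high and none low. They ranged from Gars at 0.10 to Sars at 2.58, with a median of 1.05, or 1.31 with the length trend removed. Of 42 nucleolar ribosome biogenesis factors, 20 were high and none low, led by Nop10 (3.60) and Mrto4 (3.50).

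The mitochondrial machinery encoded in the nucleus had the highest list medians after histones, before the length trend was removed. Of 69 nuclear-encoded subunits of the respiratory chain, 61 were high and none low, and the median of 2.61 is 6.10-fold above the typical gene. The complex I subunit Ndufa6 reached 6.04 with 788 footprints and 55 RNA reads, and the complex III subunit Uqcrq 5.84 with 1365 and 109. At the other end stood Atp5g1 (-0.38) and Atp5c1 (0.39), both of the ATP synthase. By complex, medians were 2.84 for complex I, 1.64 for complex II, 2.15 for complex III, 2.84 for complex IV and 1.96 for the ATP synthase. With the length trend removed they were 1.38, 1.11, -0.12, 0.86 and 1.33 in the same order. Of 75 mitochondrial ribosomal proteins, 61 were high and none low, with a median of 2.14, the highest being Mrpl14 at 6.61 (658 footprints and 31 RNA reads) and the lowest Mrpl37 at -0.26. Mrpl14 lies next to the RNA minimum of 30. Like Ndufa6 and Uqcrq it had under 300 RNA reads, where 61.1% of members were high and few could be called low. With the length trend removed, the medians of the respiratory chain and the mitochondrial ribosome were 0.98 and 1.52. The former then lay below cytosolic aminoacyl-tRNA synthetases (1.31), cytosolic chaperones (1.17) and the extracellular matrix (1.00). Over the other pairs they ranged from 2.03 to 2.40 for the respiratory chain and from 1.6 to 1.9 for the mitochondrial ribosome.

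The proteins made inside the mitochondrion gave the opposite picture. Of 7 mitochondrially encoded mRNAs measured, none was high and 3 were low, with a median of -0.89, or -2.95 against genes of like length. mt-Nd1 stood at -2.16 and mt-Cytb at 0.08. These mRNAs are translated by the mitochondrial ribosome, so the comparison is across different kinds of ribosome. Whether the preparation recovers the footprints of both equally was not tested.

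Protein degradation and folding genes also lay above the median. Of 32 proteasome subunits, 25 were high and none low, with a median of 1.87, or 0.94 with the length trend removed. Psma6 (4.95) and Psma7 (4.83) led, and Psma3 (-0.56) and Psmd11 (-0.32) were lowest. All 6 ATPases of the regulatory particle base were high, with a median of 1.76. The cytosolic chaperones had a median of 0.88, with 10 of 20 high and 2 low. Within them, all 8 subunits of the CCT ring, which folds actin and tubulin, were high, from Tcp1 at 1.09 to Cct5 at 2.67. The co-chaperone Stip1 stood at 3.14, whereas the low members were the inducible Hspa1b at -1.73 and Hspe1, a mitochondrial co-chaperonin that the list also holds, at -1.85. Of 17 endoplasmic reticulum chaperones, 9 were high and 1 was low, the median being 1.57, or 0.49 with the length trend removed, with Manf highest (3.80) and Dnajb9 lowest (-1.64).

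Lysosomal hydrolases, which break down ingested protein and other macromolecules, had a median of 1.14, with 20 of 38 high and 1 low. Fuca1, an alpha-L-fucosidase, was the highest at 3.31 in wild-type replete cells, yet it stood at 1.66, -0.33 and 0.78 in the other pairs. It had 117 CPM of footprints in wild-type replete, 31.8 in wild-type leucine-free, 18.4 in knockout replete and 33.3 in knockout leucine-free cells, against RNA of 11.5, 9.77, 22.6 and 19.4 CPM. Footprints were highest, by far, in the wild-type replete library. Ctsa, a lysosomal carboxypeptidase, was next and steady, at 3.05, then 2.86, 3.25 and 3.43. The iduronate sulphatase Ids was the only low member, at -3.61 with 219 footprints and 12305 RNA reads, and remained between -3.88 and -3.09 elsewhere.

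**Figure D3:**
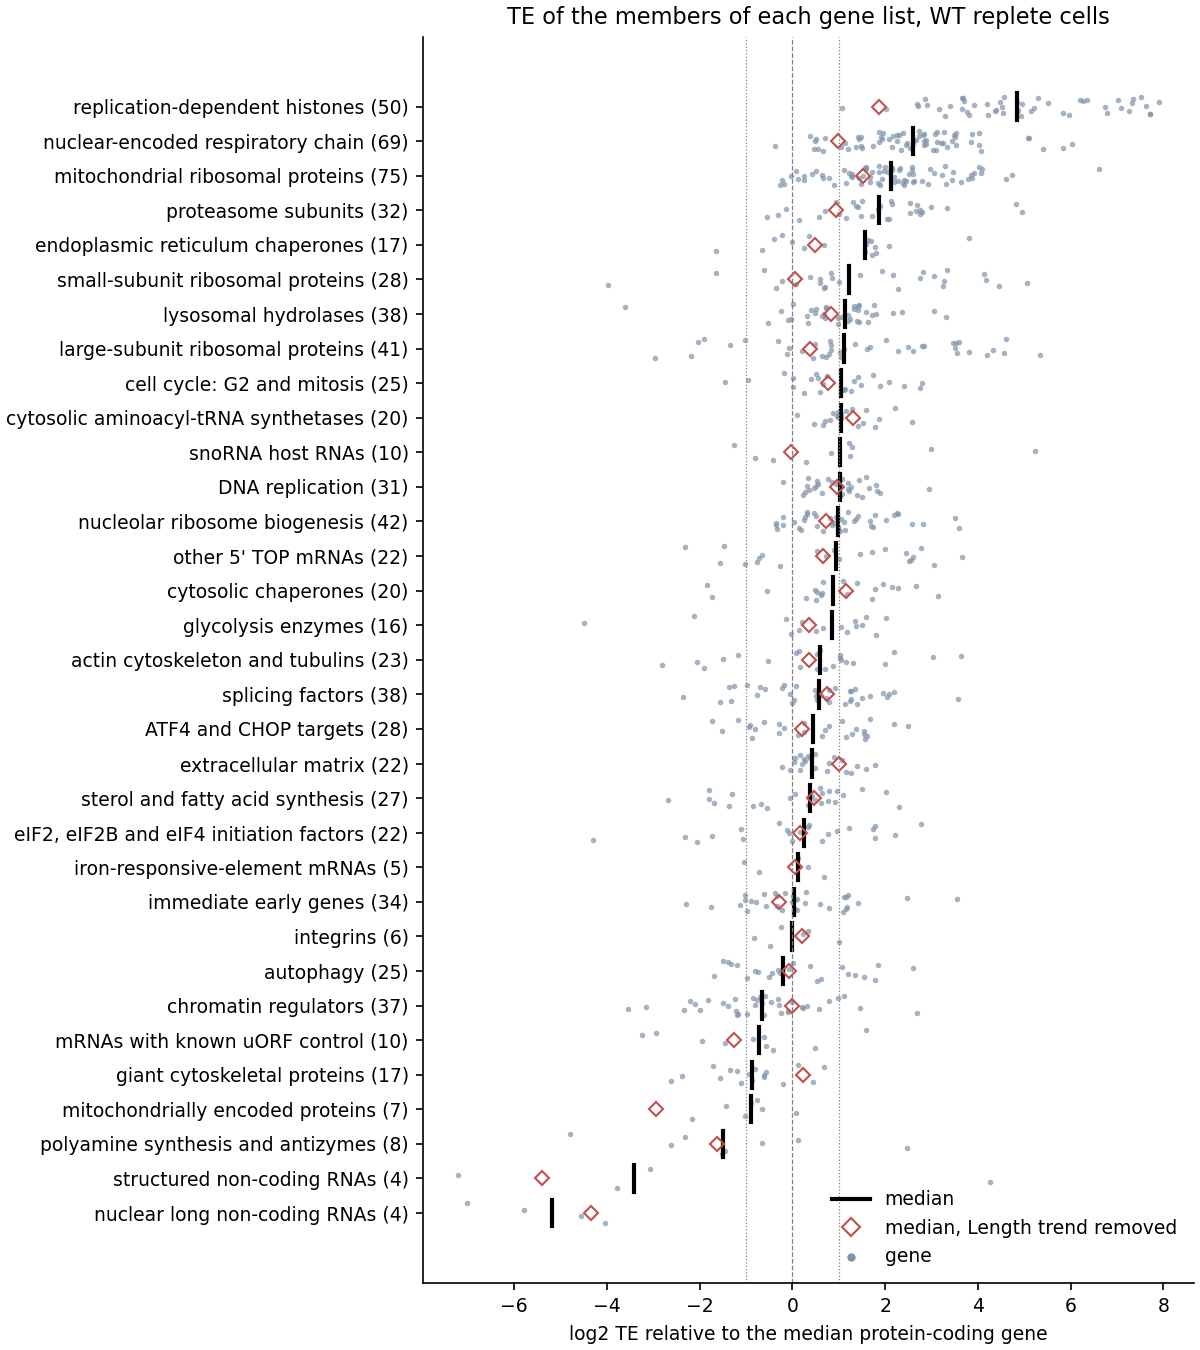
Log2 TE (x axis) of every measured member (points) of the hand-made gene lists (y axis, number measured in brackets) in wild-type replete cells, with each list's median (bar) and its median after removal of the length trend (diamond); dotted lines mark 2-fold. By the bars, histones, the respiratory chain and mitochondrial ribosomal proteins lie furthest right, and nuclear long non-coding and structured non-coding RNAs furthest left.

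Replication-dependent histone genes had the highest median of the lists. All 50 measured genes were called high, with a median of 4.85, 28.8-fold above the typical gene. The medians were 4.06, 4.31 and 4.84 in the other pairs. The count minimum left 50 of 70 listed genes, and their median RNA was 6.24 CPM, against 47.1 CPM for all protein-coding members. At so little RNA the minimum leaves few genes that could be called low, so the lack of low calls is partly set by it. Hist1h2ab led at 7.90 with 4999 footprints against 96 RNA reads, and Hist1h2bc was lowest at 1.07 with 1125 against 2452. Their mRNAs end in a stem-loop in place of a poly(A) tail, and whether polyadenylated RNA was selected for the RNA-seq libraries is not stated in the sources used here. The part that RNA selection or shared sequence between histone copies plays in these values was not tested. They are also the shortest mRNAs, with a median exonic length of 556 nucleotides, and after removal of the length trend the median was 1.86, with 41 of 50 above 0.

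Other genes of dividing cells were moderately high. Of 31 DNA replication genes, 17 were high and none low (median 1.02), ranging from Rfc5 at -0.20 to the replication protein Rpa3 at 2.94. The 6 subunits of the MCM helicase lay between 0.53 and 1.83. Of 25 genes of G2 and mitosis, 13 were high and 1 low (median 1.06). The paired cyclins of mitosis differed: Ccnb2 stood at 2.79 with 1642 footprints and 1090 RNA reads, and Ccnb1 at -1.46 with 438 and 5544. Cdk1, the kinase both activate, stood at 2.75. The gap between the cyclins was present in the other pairs, with Ccnb2 at 2.33, 3.06 and 2.96 and Ccnb1 at -1.58, -1.35 and -2.10.

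Glycolytic enzymes had a median of 0.85, with 8 of 16 high and 2 low. The low pair were Pgk1 (-4.49, with 51 footprints and 5246 RNA reads) and Gapdh (-2.12, with 409 and 8162). What part sequence shared with other places in the genome plays in these 2 values was not tested. The highest were Tpi1 (2.02) and Hk1 (1.81). Of 27 sterol and fatty acid synthesis genes, 4 were high and 6 low (median 0.37), which is 14.8% and 22.2% of the list. The fatty acid elongase Elovl6 (-2.68) and the desaturase Scd1 (-1.81) were lowest, while the mevalonate pathway kinase Pmvk (2.31) and the sterol dehydrogenase Nsdhl (2.03) were highest.

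Structural genes spanned both ends. Among 23 actin, actin-partner and tubulin genes, 9 were high and 5 low, with a median of 0.60: Tmsb10 (3.63) and Pfn1 (3.02), which bind monomeric actin, lay at the top, and Tpm4 (-2.82) and the myosin light chain gene Myl12a (-2.05) at the bottom. Actb stood at 0.60. Genes of the extracellular matrix had a median of 0.43, with 6 of 22 high and none low, and of 1.00 among genes of like length. Its highest members were the collagens Col6a3 at 1.78 and Col1a1 at 1.58, and its lowest were Thbs1 (-0.22) and Lamc1 (-0.06). Col6a3 rests on 30 footprints and 40 RNA reads. It sits on the count minimum of 30, and with fewer footprints it would not have been measured, so its rank is set by the filter. Giant cytoskeletal proteins had a median of -0.87, with 7 of 17 low and none high, led downward by the spectraplakins Macf1 (-2.61) and Dst (-2.37). Their median exonic length is 17997 nucleotides, and with the length trend removed their median turned to 0.23. Of all protein-coding members of 8000 nucleotides or more, 42.2% were low, near the 41.2% of this list. The 6 integrins were centred on the median gene, from Itga6 at -0.83 to Itga5 at 1.01.

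Several classes of regulators had few footprints per RNA. Of 10 mRNAs with known uORF control, 4 were low and 1 high, with a median of -0.73. Ibtk (-3.24, with 117 footprints and 5056 RNA reads) and Ppp1r15b (-2.95, with 1091 and 38586), the constitutive subunit of the eIF2 phosphatase, were lowest. Eprs, the glutamyl-prolyl tRNA synthetase, was highest at 1.59 and Cebpb next at 0.50. With the length trend removed, 1 of the 10 was above 0 and the median was -1.27. Ppp1r15b had 125, 131, 112 and 55.3 CPM of footprints in wild-type replete, wild-type leucine-free, knockout replete and knockout leucine-free cells, against 942, 943, 931 and 1005 CPM of RNA, so its RNA was level and its footprints were fewest in knockout leucine-free cells. The list's medians in the other pairs were 0.45 (11 genes), -1.35 (10 genes) and -1.34 (11 genes).

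Atf4, the transcription factor of the amino acid response and a classic uORF-controlled mRNA, stood at -0.61 in wild-type replete cells, with an interval of -0.69 to -0.54. Its footprints stood at 179, 521, 201 and 211 CPM and its RNA 267, 501, 473 and 535 CPM in wild-type replete, wild-type leucine-free, knockout replete and knockout leucine-free cells. Both its footprints and its RNA were lowest in wild-type replete cells, and its TE in the other pairs was 0.01, -1.26 and -1.34. Since footprints on its uORFs count too, this is not the TE of the ATF4 protein. Ddit3, encoding its partner CHOP, had 21 footprints and 149 RNA reads and was no member. Of 28 target genes of these factors, 11 were high and 3 low (median 0.45). They ranged from the receptor kinase Ddr2 (-1.73) and the transaminase Gpt2 (-1.52) to Eif4ebp1 (2.18) and Ddit4 (2.49), which restrains mTOR signalling. Eif2ak4 itself stood at -0.52.

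Of 8 genes of polyamine synthesis and its antizymes, 5 were low and 1 high, with a median of -1.49. Translation of several of them is known to respond to polyamines through uORFs or frameshifting. Besides Sms (-4.79), the rate-limiting ornithine decarboxylase Odc1 stood at -2.62, with 45.6, 19.4, 44.1 and 84.0 CPM of footprints in wild-type replete, wild-type leucine-free, knockout replete and knockout leucine-free cells and 273, 254, 253 and 221 CPM of RNA. RNA of Odc1 was level across states and footprints were not, with TE at -3.75, -2.55 and -1.39 in the other pairs. Spermidine synthase Srm, at 2.47, was the high exception. Of the 5 mRNAs with iron-responsive elements, none was high and 1 was low, with a median of 0.12. The transferrin receptor Tfrc (0.68) and Fth1, ferritin heavy chain (0.33), were highest, and the phosphatase Cdc14a (-1.04) and the iron transporter Slc11a2 (-0.73) lowest. Ftl1, with 23 footprints and 29 RNA reads, was no member.

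Of 37 chromatin regulators, 13 were low and 3 high, with a median of -0.65. The DNA demethylase Tet3 (-3.55, with 128 footprints and 6888 RNA reads) and the Polycomb protein Bmi1 (-3.16, with 358 and 14634) were lowest, and the remodelling subunit Smarcb1 (2.70) and the deacetylase Hdac2 (1.45) highest. These mRNAs are long, and without the length trend the list was centred at -0.01. The 233 genes named Zfp with a number, most of which encode zinc finger proteins, had 89 low (38.2%) and 10 high (4.29%), with a median of -0.78. Here the median was -0.63 after length removal, so most of the difference from the typical gene was still there. This family was listed after low Zfp genes had been seen, and 131 of its 364 genes did not reach the count minimum. Immediate early genes were centred near the median (0.03, with 9 of 34 high and 5 low), with Fosl1 (3.55) and Fosl2 (-2.29) of the same AP-1 family at opposite ends. Splicing factors (0.58, with 14 of 38 high and 5 low) ranged from Pcbp1 at 3.57 to Srsf10 at -2.36. Autophagy genes (-0.19, with 7 of 25 high and 5 low) ranged from Map1lc3a at 2.60 to the initiating kinase Ulk1 at -1.69.

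Nuclear lncRNAs, which are not translated, had few footprints per RNA. Of 8 on the list, 4 were measured. Neat1, a paraspeckle scaffold, stood at -7.01 with 30 footprints and 17712 RNA reads, and Malat1 at -5.80 with 1238 and 315923. Kcnq1ot1 stood at -4.56 with 30 and 3237, and Tug1 at -4.04. Neat1 and Kcnq1ot1 sit on the count minimum of 30, and with fewer footprints they would not have been measured. Xist, a nuclear lncRNA outside the list, stood at -6.19 with 62 footprints and 20787 RNA reads. Malat1 had 142, 145, 108 and 189 CPM of footprints against 7715, 5669.75, 7004 and 10772 CPM of RNA across the 4 states, and remained between -6.06 and -5.33. Malat1 lay below all protein-coding members, and the lowest of these, Csnk2a1, lay between Malat1 and Kcnq1ot1. The 84 lncRNAs as a whole were centred at -0.05, with 19 high and 25 low. Of 10 snoRNA host genes, 5 were high and 1 low (median 1.03, or -0.04 with the length trend removed), with Snhg8 at 5.24 and Snhg17 at -1.26. Gas5, a TOP-containing host RNA, stood at 0.30. Short structured RNAs, such as Rn7sk at -7.21 and Terc at 4.25 (137 footprints and 33 RNA reads), are known to be protected from nuclease without ribosomes, and no translation is read from their values.

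TE was lower for longer genes. Length here is the summed exonic length of each gene in the count files, which includes untranslated regions and exons of all isoforms. Spearman's rank correlation across the 9467 protein-coding members was -0.49. Genes under 1000 nucleotides (160) had a median TE of 3.08, those of 1000 to 2000 nucleotides (823) 1.48, those of 2000 to 4000 (2696) 0.53, those of 4000 to 8000 (3843) -0.25 and those of 8000 or more (1945) -0.80. The share called high was 91.9% in the shortest bin and 5.45% in the longest, and the share called low 1.25% and 42.2%. Of the 160 shortest genes 76 had 300 or more RNA reads, against 1902 of the 1945 longest. Below 300 RNA reads the count minimum raises the median and leaves few low calls. Its part in the height of the shortest bin was not tested. The 50 measured replication-dependent histone genes had a median exonic length of 556 nucleotides and a median TE of 4.85, so many of them lie in that bin. Their part in its height was not tested either. RNA per kilobase did not vary with length (rank correlation -0.00), with medians of 9.36 and 9.60 CPM per kilobase in the shortest and longest bins. Footprints per kilobase did, with medians of 90.0 and 5.003. In counts not divided by length the order is the reverse, since the rank correlation with length was 0.44 for RNA and 0.09 for footprints, and median RNA was 6.35 CPM in the shortest and 107 CPM in the longest bin against 68.1 and 58.1 CPM of footprints. The rank correlation was -0.45, -0.46 and -0.46 in the other pairs. These points share their libraries and annotation, genes are not independent replicates, and coding and untranslated length were not told apart.

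**Figure D4:**
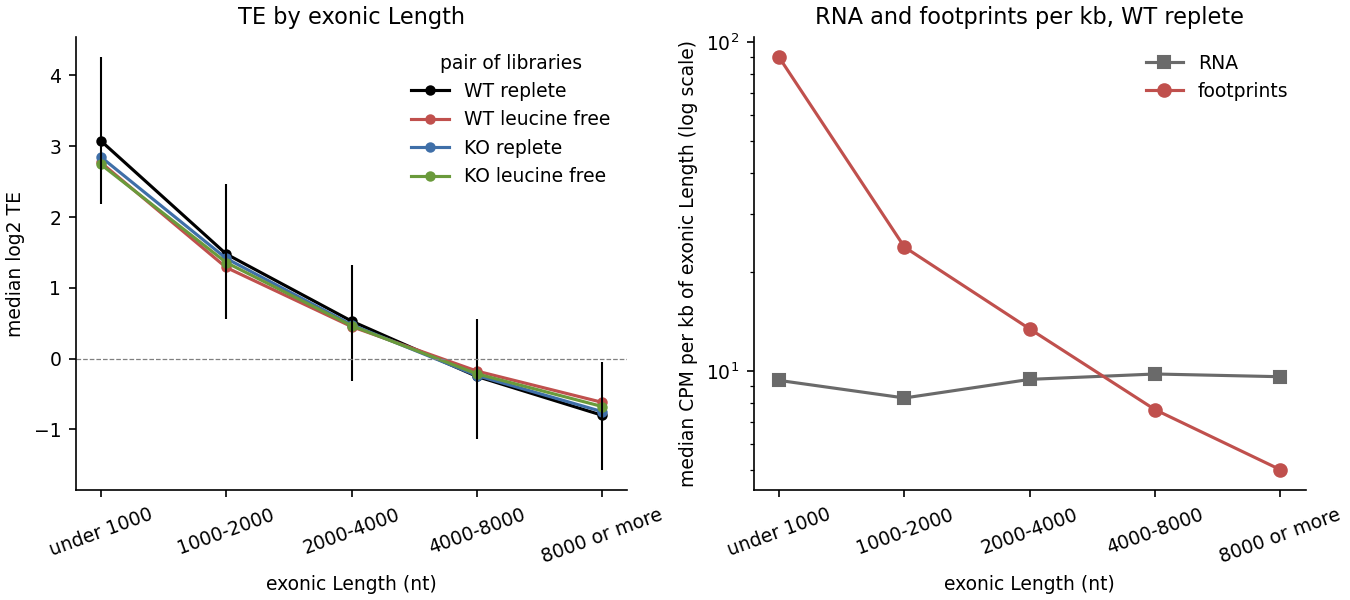
Left, median log2 TE (y axis) of protein-coding members in 5 bins of exonic length (x axis) for the 4 pairs of libraries, with quartiles for wild-type replete cells. Right, median RNA and footprint CPM per kilobase (y axis, log scale) in the same bins: the RNA line is flat and the footprint line falls from 90.0 to 5.003.

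TE was also lower for abundant RNAs. Across genes the rank correlation with the RNA count was -0.46. It was -0.45 with the RNA count of the knockout replete library, which is no part of the ratio. Both were taken over genes chosen by the count minimum in wild-type replete cells, so neither is free of that filter. After removal of the length trend the rank correlation was -0.26. Within the 5 length bins it lay between -0.44 and -0.23, and between -0.30 and -0.20 among the members with 300 or more RNA reads. Genes of 30 to under 300 RNA reads had a median TE of 1.41, and genes of 10000 or more RNA reads a median of -0.77. The lower end owes part of its height to the count minimum: 47.4% of the genes with 30 to under 300 RNA reads had enough footprints to be measured, and the median of all of them was 0.17. From 1000 RNA reads upward at least 98.5% were measured and the filter moved the medians little. With a minimum of 300 RNA reads and none on footprints, the rank correlation was -0.29. Footprint and RNA counts themselves followed each other with a rank correlation of 0.69.

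**Figure D5:**
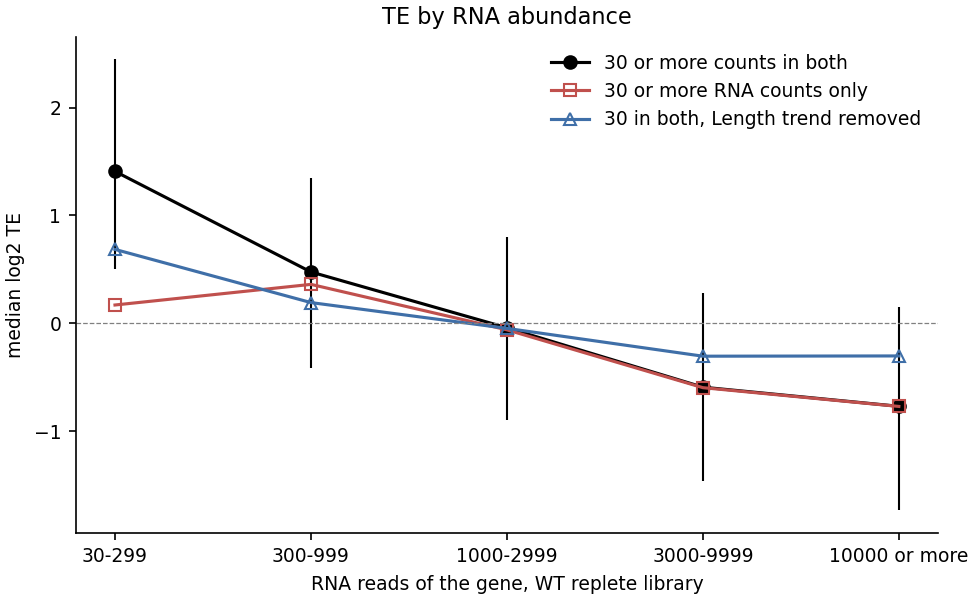
Median log2 TE (y axis) of protein-coding genes in 5 bins of RNA reads (x axis): filled circles with quartiles for genes with 30 or more reads in both libraries, squares for all genes with 30 or more RNA reads, and triangles for members after removal of the length trend. Circles and squares part in the lowest bin, at 1.41 and 0.17.

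Filtering on footprints hides the genes with fewest. In all, 1388 protein-coding genes had 30 or more RNA reads and fewer than 30 footprints, and 137 members just inside the limit, with 30 to 34 footprints, had a median TE of -0.63 against -0.49 for 172 genes just outside, with 25 to 29. The 5 unmeasured genes with most RNA were Ywhaq, a 14-3-3 protein (24 footprints against 13529 RNA reads), the ubiquitin-conjugating enzyme Ube2l3 (18 against 10443), Tmem170b (27 against 6164), the arginine methylation cofactor Wdr77 (4 against 6104) and the transporter-like Mfsd4a (8 against 5736).

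Other gene features were related to TE more weakly. For the 7734 members with a RefSeq start window (81.7%), the rank correlation of TE with the GC content of the 50 bases after the start was -0.17, and -0.14 after length removal. The fifth of genes with least GC had a median of 0.27 and 29.8% high, and the fifth with most had -0.51 and 13.5% high. Of the members, 254 have a pseudogene copy named after them with the suffix ps. Their quartiles, -1.36 and 1.27, were wider than those of the other 9213 genes, -0.94 and 0.92, and they were called both high (30.7%) and low (29.9%) more often than the background. Csnk2a1, Sms and Lgals1 are among them. The part of shared sequence in their values, or in that of any other single gene named here, was not tested. Genes with over 50% of their exonic bases shared with another gene (67) had a median of 1.17. These 3 features were chosen after TE had been seen.

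The ranking of genes by TE in wild-type replete cells was close to that in the other states. The rank correlation with the TE of knockout replete cells was 0.97 over 9135 genes, 0.96 with wild-type leucine-free cells over 7879 and 0.94 with knockout leucine-free cells over 8798, although genes in every pair also share their length, annotation and sequence. Over 7815 genes measured in all 4 pairs, the median standard deviation of a gene over the pairs was 0.24. Of 1948 of these genes that were high in wild-type replete cells, 1368 (70.2%) were high in all 4 pairs, and of 1684 that were low, 1184 (70.3%) were, where 21.3% to 23.8% of all genes tested were called high and 21.6% to 23.6% low in the other pairs. Rbm3, a cold-inducible RNA-binding protein, was the only gene of the 7815 called high in wild-type replete cells and low in another pair, and none went the other way.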

How the data were processed

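RNA-seq and ribosome profiling were measured in 8 libraries, 1 per genotype, medium and assay. The deposited values are raw read counts per gene. Counting used featureCounts 1.6.4 and exon features of Ensembl 96, per the file headers, which show no setting for strandedness, multi-mapping or reads on overlapping genes. Cutadapt, STAR, featureCounts, Subread and GRCm38 are named per the submitters' processing notes. Per the labels' protocols, cells were lysed in 100 ug/mL cycloheximide and 1% Triton X-100.

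A RefSeq gene table (GRCm38, patch 6), matched by symbol or by a synonym of a single gene, classed 21405 genes as protein-coding. Counts were divided by the protein-coding total times the TMM factor of its assay (edgeR 4.0.16, R 4.3.3; 0.949 for wild-type replete footprints and 0.994 for RNA). TE was centred on the median protein-coding member. Counting intervals (95%) treat both counts as Poisson. The length trend was a lowess fit of log2 TE on log2 length (statsmodels 0.14.6, fraction 0.3). For the medians and the rank correlation taken without a minimum on footprints, a prior count of 0.5 was added to every gene's footprints. Scripts were tested on simulated counts. With 1 library per group, no test between states was made.

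The text names the 10 highest and 10 lowest protein-coding members with 300 or more RNA reads, up to 2 members at each end of the lists, a fixed set of control genes, and the 5 genes with most RNA but under 30 footprints. Complexes, sequence windows, markers and single contrasts within a list were named beyond this after values had been seen. Members and lists were chosen with earlier results of these data known. The alternatives were count minimums of 10 and 100, other scalings, RNA from another library, a minimum on RNA alone and removal of the length trend. Protein sequences and coding lengths were not used here.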

Additional observations from a re-analysis of the deposited data

Results flagged for a closer look

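A signal outside the measured ratio came from protein-coding genes with footprints but no RNA: in wild-type replete cells 33 genes had 30 or more footprint reads and 0 RNA reads, where a count of 0 sets the limit. Ankrd60 had 1631 footprints, Hunk 1212 and Evx2 1147. In the wild-type leucine-free, knockout replete and knockout leucine-free libraries Ankrd60 had 826, 1546 and 1707 footprints, Hunk 795, 1033 and 926, and Evx2 398, 579 and 594. Of the 33 genes, 25 had 30 or more footprints in all 4 footprint libraries and 22 had 0 RNA reads in all 4 RNA libraries. The source of these reads was not tested.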

How the results depend on the processing

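The numbers of genes called high and low remained within 1.5 times the values reported (2222 and 2260) under every alternative run: 2463 and 2503 with a count minimum of 10, 1816 and 1878 with 100, 2292 and 2199 without centring, 2964 and 1658 with all counted reads as the scale, and 1842 and 2006 with the length trend removed. The share of high among the calls was 49.6%, 51.0% without centring and 64.1% without centring and with all counted reads as the scale. The rank correlation of TE with length was -0.48 with a minimum of 10 and -0.50 with 100. The rank correlation of TE with RNA abundance was -0.40 with a minimum of 10, -0.54 with 100, where it exceeded that with length, and -0.29 with a minimum of 300 on RNA alone.

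Of 34 list medians, 21 stayed inside the binomial interval of the list's median when the length trend was removed and 9 left it: -0.011 for chromatin regulators, -0.63 for Zfp genes, 0.39 and 0.067 for large- and small-subunit ribosomal proteins, 1.52 for mitochondrial ribosomal proteins, -2.95 for mitochondrially encoded proteins, 0.98 for the respiratory chain, 0.94 for the proteasome and 1.86 for histones. The sign turned for giant cytoskeletal proteins (0.23), immediate early genes (-0.29), integrins (0.20) and snoRNA hosts (-0.037). With a minimum of 100 immediate early genes stood at -0.023, and with a minimum of 10 structured non-coding RNAs, then 6 genes, at 0.61. Among named genes under length removal, 121 kept their call and sign, 13 kept lying inside the threshold but turned sign, 13 lost and 7 gained a call, and 4 turned sign with a call on either side: Rpl41 to -1.02, Hist1h2bc to -0.99, Cebpb to -1.07 and mt-Cytb to -2.01. The cause was not tested. Footprints per coding nucleotide and coding length as the measure of length were not run, for want of coding lengths. No paired analysis was possible because the labels carry no replicate numbers and these results come from no test. Depth limits the measure to 47.4% of genes with 30 to under 300 RNA reads.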
